A study of Mus musculus with 12 samples.

Results

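The Hippo-YAP genes described here are 10 genes. They include the coactivators Yap1 and Wwtr1 (TAZ), the DNA-binding partners Tead1 and Tead4, and the kinases Lats1 and Lats2. The others are Sav1, a scaffold of the MST kinases, the angiomotin family member Amotl1, and the target genes Ctgf and Cyr61. All 10 were taken by symbol from count tables of 24421 genes and were present there. All 10 passed the filter on low counts, which left 12252 genes for testing. RNA-seq was performed on 12 libraries of cardiomyocytes sorted at postnatal day 1 from 4 groups: Tnnt2low and Tnnt2high cells of Glut1 transgenic (Glut1 tg) hearts, with 4 libraries each, and the same populations of wild-type (WT) hearts, with 2 libraries each. All mice carried αMHC-Cre and the R26 YFP reporter on a CD1 background, and Glut1 tg mice also carried human GLUT1 under the αMHC promoter. The αMHC promoter is active in cardiomyocytes, so both the reporter and the transgene are limited to that lineage. The sample labels name the populations by Mitotracker, a dye of mitochondrial content. High Mitotracker signal was read as Tnnt2low and low signal as Tnnt2high, which is the pairing of the study. Each Glut1 tg replicate was 1 heart that gave both populations. The 2 WT numbers both belong to heart number 9 in the labels, so n = 2 counts WT libraries and not hearts known to be separate. The p-values for WT rest on a spread estimated over all 4 groups in 1 fit. The WT part of that spread lies between these libraries and may be technical.

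The Hippo pathway is a kinase cascade that restrains growth. MST kinases, held by the scaffold SAV1, activate LATS1 and LATS2, which phosphorylate YAP and TAZ and keep them in the cytoplasm. Unphosphorylated YAP and TAZ enter the nucleus and bind TEAD factors, and CTGF and CYR61, secreted matricellular proteins of the CCN family, are commonly read as their target genes. LATS2 is itself a YAP target and acts back on YAP, and angiomotin family proteins bind YAP and can hold it outside the nucleus. In the mouse heart, loss of Sav1 or activation of Yap1 prolongs or restores cardiomyocyte proliferation. The pathway acts mainly through phosphorylation and localisation of its proteins, which RNA-seq does not measure.

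Promoters of the members are shown because the TEAD core motif, CATTCC or its reverse complement GGAATG, is the sequence that TEAD factors bind. RefSeq promoters of mouse build GRCm38.p6 (250 bases before to 50 bases after each start) matched 7 of the 10 members with 9 promoters. Ctgf, Tead1 and Tead4 were not matched. The motif was searched on both strands and stood in 6 of the 9 promoters, those of Cyr61, Yap1, Sav1, the first of the 2 Lats2 starts and both Wwtr1 starts, whose windows overlap and hold the same site. Of all 32851 promoters in the table, 14.7% held it. The windows of Lats1, Amotl1 and the second Lats2 start did not hold these letters. The promoters of the target Cyr61 (chr3:145649936-145650235, minus strand), the feedback kinase Lats2 (chr14:57746074-57746373, minus strand) and Yap1 itself (chr9:8004547-8004846, minus strand) are printed 5′ to 3′ on the gene's strand, with the motif in capitals.
Cyr61: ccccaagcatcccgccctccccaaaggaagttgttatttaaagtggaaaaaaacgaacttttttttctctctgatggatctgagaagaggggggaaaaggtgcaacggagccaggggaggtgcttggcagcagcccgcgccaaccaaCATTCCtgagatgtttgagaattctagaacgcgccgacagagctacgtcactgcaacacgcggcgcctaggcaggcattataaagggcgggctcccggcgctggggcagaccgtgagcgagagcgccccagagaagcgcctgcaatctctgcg
Lats2: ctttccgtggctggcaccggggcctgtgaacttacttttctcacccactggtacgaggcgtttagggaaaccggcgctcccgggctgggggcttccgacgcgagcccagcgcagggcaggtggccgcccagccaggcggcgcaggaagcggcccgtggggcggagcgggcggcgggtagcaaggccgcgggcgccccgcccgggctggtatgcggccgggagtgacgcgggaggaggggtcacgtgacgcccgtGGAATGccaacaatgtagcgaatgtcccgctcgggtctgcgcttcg
Yap1: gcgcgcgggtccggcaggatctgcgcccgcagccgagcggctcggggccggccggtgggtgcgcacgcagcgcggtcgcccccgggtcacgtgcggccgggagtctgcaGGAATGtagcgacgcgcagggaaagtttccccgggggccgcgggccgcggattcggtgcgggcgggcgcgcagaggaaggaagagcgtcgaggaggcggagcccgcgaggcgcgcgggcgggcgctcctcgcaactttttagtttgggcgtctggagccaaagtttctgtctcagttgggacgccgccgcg
The first base of the motif lay at position -103 from the start in Cyr61, as CATTCC, and at -141 in Yap1, as GGAATG. In Lats2 it lay at position 5 after the start, as GGAATG, with the start counted as position 1. A match of these letters is a description of the sequence, and TEAD binding was not measured.

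Libraries held 4065306 to 9815069 reads assigned to genes. A smaller share of reads was assigned to genes in Tnnt2high libraries. Reads with no gene feature numbered 0.962 ± 0.0758 (SD, n = 4) per gene read in Glut1 tg Tnnt2low and 2.38 ± 0.169 (SD, n = 4) in Glut1 tg Tnnt2high libraries. Whether strand was used in counting is not known, so these reads may include some within exons. In WT the ratios in replicates 1 and 2 were 1.13 and 1.495 in Tnnt2low and 1.83 and 1.51 in Tnnt2high libraries. Levels are given as CPM, read counts scaled for library size by the TMM method. Tnnt2, which encodes cardiac troponin T, was at 12660 to 13980 CPM in Glut1 tg Tnnt2low and 16090 to 20830 CPM in Glut1 tg Tnnt2high libraries, in the order of the labels. In WT its levels were 15740 and 16730 CPM in Tnnt2low against 16250 and 17200 CPM in Tnnt2high libraries, which overlapped. Slc2a1, the mouse gene of GLUT1, was at 33.5 to 92.6 CPM in the 8 Glut1 tg and 13.3 to 28.9 CPM in the 4 WT libraries, which did not overlap. The 12 cardiomyocyte markers summed to 138600 to 177100 CPM over all libraries, and all 12 were detected, as the labelled cell type requires.

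When set per kilobase of exon, the target genes were the most abundant of the 10 and Tead4 the least. Over the 12 libraries, Ctgf averaged 77.4 ± 48.4 CPM per kb (SD, n = 12) and Cyr61 55.7 ± 23.5 CPM per kb (SD, n = 12), and their ranges overlapped. Tead1 followed at 26.9 ± 7.51 CPM per kb (SD, n = 12), ahead of the coactivators Wwtr1 at 19.0 ± 3.05 and Yap1 at 18.1 ± 3.59 CPM per kb (SD, n = 12), which did not differ beyond their spread. Lats2 averaged 12.5 ± 3.84, Amotl1 9.92 ± 2.08 and Sav1 9.80 ± 2.20 CPM per kb (SD, n = 12), again within each other's spread. Lats1 was lower than its paralogue at 2.44 ± 0.647 CPM per kb (SD, n = 12), and its highest library, at 3.22 CPM per kb, lay below the lowest Lats2 library at 7.62 CPM per kb. Tead4 was near the limit of detection, with 111 reads in all 12 libraries together against 22508 for Tead1. Lats2 counts may carry an uncertainty of their own, since 41.2% of its 50-base exon words also occur in transcripts of other GENCODE genes. What this does to its counts was not tested. The largest such share among the other 9 members was 0.548%.

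**Figure D1:**
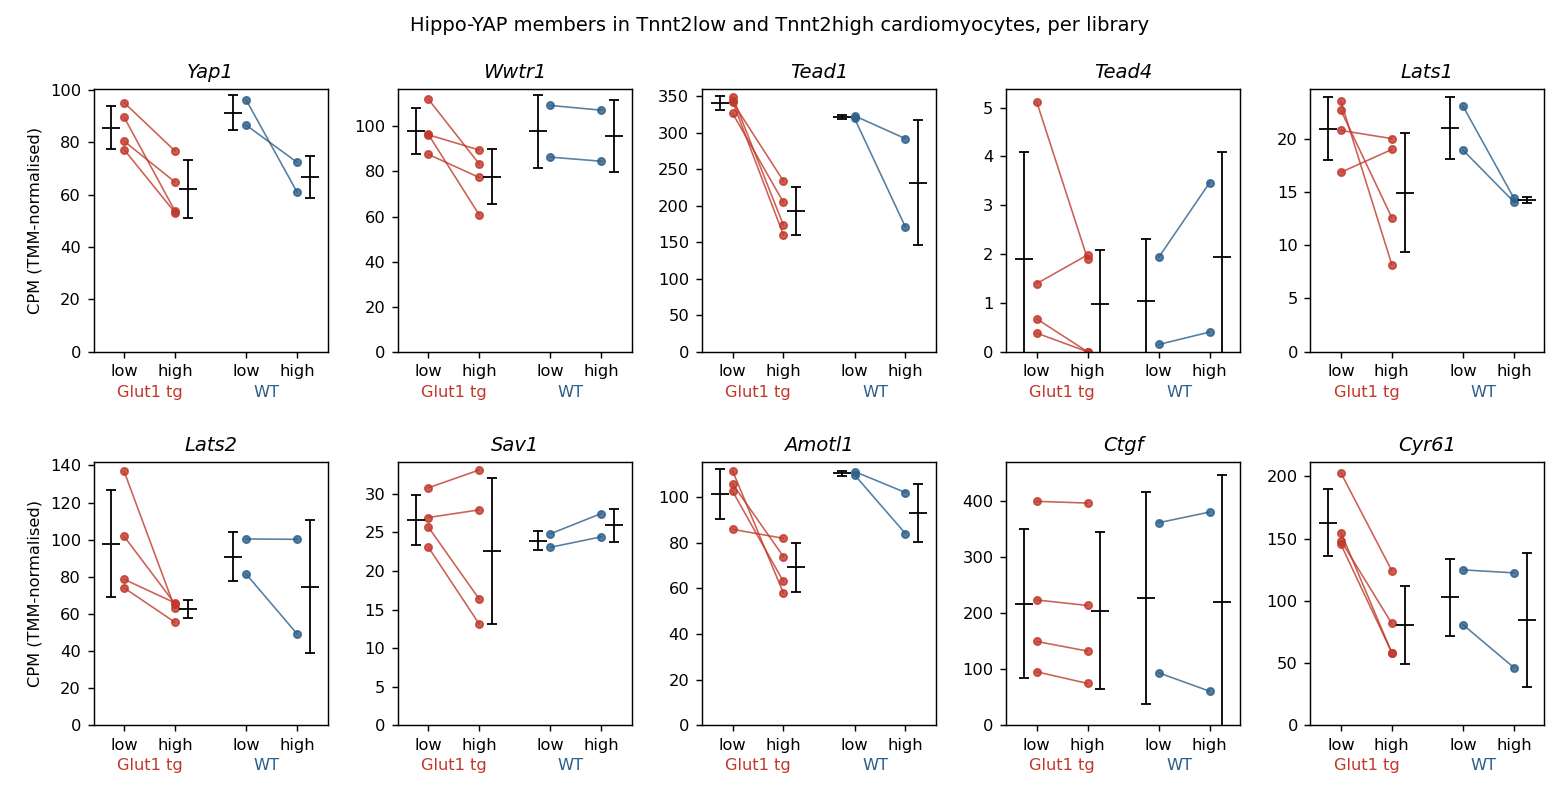
Levels of the 10 members in CPM (linear axis from 0) in each library of the 4 groups, with lines joining the 2 libraries of a replicate pair and black marks for mean ± SD (n = 4 for Glut1 tg, n = 2 for WT, bars that pass below 0 are clipped). Tead1 was at 327 to 350 CPM in Glut1 tg Tnnt2low and 160 to 234 CPM in Tnnt2high libraries, while the Ctgf lines of the Glut1 tg hearts ran nearly level.

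Tnnt2low cells of Glut1 tg hearts were compared with Tnnt2high cells of the same hearts, the comparison with the most genes called of the 5 made here. In this comparison 4 of the 10 members rose in Tnnt2low cells: Tead1 by 1.76-fold, Cyr61 by 2.01-fold, Amotl1 by 1.47-fold and Yap1 by 1.38-fold. None fell. With 1 library left out the count of members called was 1 to 5, and it was 1 without Tnnt2low replicate 1 or Tnnt2high replicate 2 and 2 without Tnnt2high replicate 1 or 4. All 10 log2 fold changes were above 0, as were 49.6% of those of all tested genes, and their median was 0.52 against -0.01 over all genes tested. Across all tested genes, 8.42% were called higher and 8.33% lower at an adjusted p under 0.05 (edgeR's quasi-likelihood test, Benjamini-Hochberg). The libraries of the populations did not overlap for 5 members, all higher in Tnnt2low cells, against 11.2% of all tested genes. In bulk libraries, fewer cells that express a gene and less of its RNA per cell cannot be told apart.

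Of the coactivators, Yap1 (chr9:7931999-8004596, mm10) was at 89.5, 77.1, 95.1 and 80.3 CPM in Glut1 tg Tnnt2low and at 53.7, 53.1, 76.6 and 64.8 CPM in Tnnt2high libraries. Every Tnnt2low library was above every Tnnt2high library, though the highest Tnnt2high value was within 1 CPM of the lowest Tnnt2low value. The log2 fold change was 0.46 (SE 0.15, adjusted p = 0.0429). It did not pass without any 1 of 9 libraries (Tnnt2low replicates 1 to 4 and Tnnt2high replicates 1, 2 and 4 of Glut1 tg, and both WT Tnnt2low libraries), with adjusted p = 0.0507 to 0.124. Wwtr1, which encodes TAZ, was at 87.6 to 112.1 CPM against 60.8 to 89.5 CPM, and the groups overlapped. Its log2 fold change of 0.34 (95% interval 0.01 to 0.66) did not pass the test (adjusted p = 0.144).

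Of the TEAD factors, Tead1 (chr7:112679318-112906807) had the smallest adjusted p of the 10 members. Tnnt2low libraries held 343, 350, 327 and 342 CPM and Tnnt2high libraries 160, 174, 205 and 234 CPM. The values were far apart, and Tnnt2low libraries varied less than Tnnt2high ones. The log2 fold change was 0.82 (SE 0.16, adjusted p = 0.0043), and Tead1 passed without each of the 12 libraries in turn. With an offset for exon length and GC content it was 0.34 and did not pass (adjusted p = 0.132, and 0.0673 with the heart as a block as well). Tead4 was read 4, 6, 11 and 40 times in Tnnt2low libraries and 0, 0, 8 and 8 times in Tnnt2high libraries, where 0 reads allow up to 0.605 and 0.821 CPM (3 reads, counting error only). No difference was detectable at this depth (95% interval of the log2 fold change -1.62 to 3.50).

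The kinases Lats1 and Lats2 and the scaffold Sav1 did not pass the test. Lats2 (chr14:57689662-57758388) was at 136.8, 101.8, 78.7 and 74.1 CPM in Tnnt2low and at 63.0, 65.4, 66.0 and 55.5 CPM in Tnnt2high libraries, which did not overlap. Its log2 fold change was 0.65 (SE 0.22, adjusted p = 0.0584). Lats2 passed in 8 of 20 alternatives. With the heart as a block its log2 fold change was 0.61 (adjusted p = 0.0282). It also passed in DESeq2 (adjusted p = 0.0263), with no filter (0.0188), a robust fit (0.0469) or only the groups compared (0.0329). The other passes were without Glut1 tg Tnnt2low replicate 4 (adjusted p = 0.0422) or either WT Tnnt2high library (adjusted p = 0.0265 and 0.0279). Lats1 was at 16.8 to 23.5 CPM against 8.18 to 19.99 CPM, and its log2 fold change was 0.48 (95% interval -0.06 to 1.03). Sav1 was at 23.1 to 30.8 CPM against 13.1 to 33.1 CPM, with a log2 fold change of 0.23 (95% interval -0.30 to 0.77). Amotl1 (chr9:14541966-14645056), a junctional protein that binds YAP, was at 111.5, 102.5, 105.7 and 85.8 CPM in Tnnt2low and at 57.9, 63.0, 73.9 and 81.9 CPM in Tnnt2high libraries. Its groups did not overlap either, but the nearest libraries, both from replicate 4, differed by a factor of 1.05. Its log2 fold change was 0.55 (SE 0.14, adjusted p = 0.0168). It did not pass without Tnnt2low replicate 1 (adjusted p = 0.0594), Tnnt2high replicate 1 (0.0555) or Tnnt2high replicate 2 (0.0543).

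Of the target genes, Cyr61 passed the test and Ctgf did not, and the difference between these genes was not tested. Cyr61 (chr3:145646976-145649981) was at 202.7, 148.4, 145.3 and 154.9 CPM in Tnnt2low and at 124.3, 81.9, 58.5 and 58.4 CPM in Tnnt2high libraries. All Tnnt2low libraries were above all Tnnt2high libraries, and replicate 1 was the highest in both populations. The log2 fold change was 1.01 (SE 0.29, adjusted p = 0.0276). It did not pass with a robust quasi-likelihood fit (adjusted p = 0.073) or without any 1 of 4 libraries, Tnnt2low replicate 1 and Tnnt2high replicates 2, 3 and 4 (adjusted p = 0.064 to 0.0825). With the heart as a block the log2 fold change was 1.07 (adjusted p = 0.00364). The study also lists Cyr61 among the genes upregulated in this comparison.

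Ctgf (chr10:24595442-24598683) varied more between Glut1 tg hearts than between their populations. It was at 398.6, 223.1, 95.3 and 149.3 CPM in Tnnt2low and at 395.5, 213.3, 74.6 and 132.2 CPM in Tnnt2high libraries. The groups overlapped over nearly their whole range, while the 2 libraries of a heart were nearly equal. The log2 fold change was 0.09 (95% interval -1.18 to 1.35, adjusted p = 0.944) in the fit without the heart as a block. That interval includes the spread between hearts and spans changes of 2-fold in both directions. Within the 4 Glut1 tg hearts the ratio of Tnnt2low to Tnnt2high was 1.01 to 1.28.

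**Figure D2:**
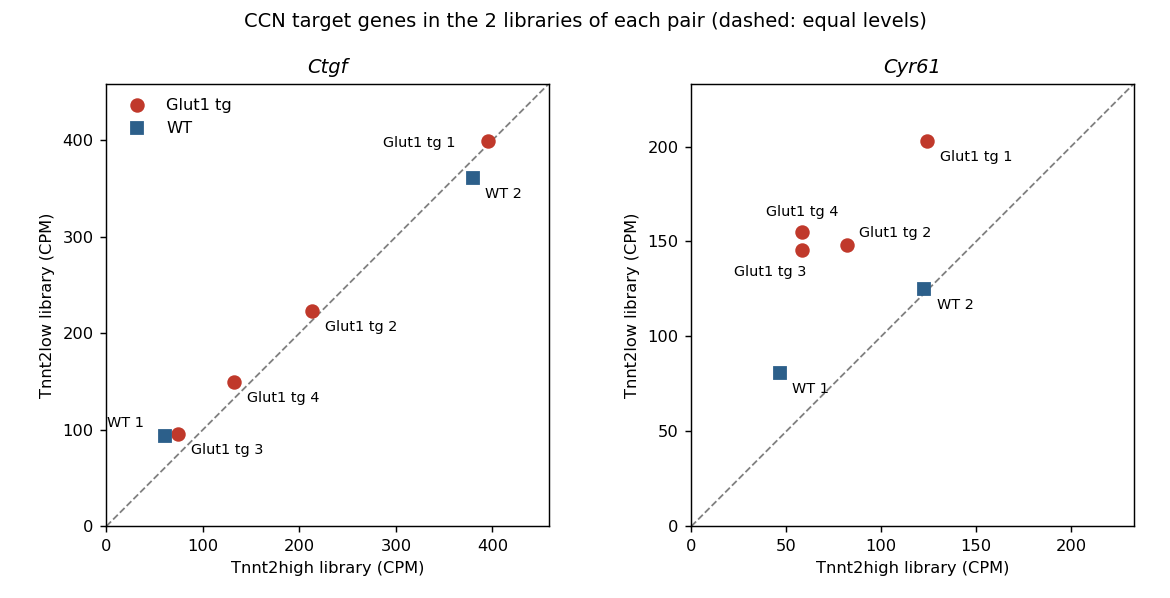
Ctgf and Cyr61 levels in CPM in the Tnnt2low library (vertical axis) against the Tnnt2high library (horizontal axis) of each replicate pair, with circles for 4 Glut1 tg hearts, squares for 2 WT numbers and a dashed line of equal levels. In the 4 Glut1 tg hearts the ratio of Tnnt2low to Tnnt2high was 1.01 to 1.28 for Ctgf and 1.63 to 2.65 for Cyr61. In WT it was 1.54 and 0.95 for Ctgf and 1.74 and 1.02 for Cyr61.

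Fold changes in this comparison moved with transcript length. Among tested genes in the shortest quartile by exon length the median log2 fold change of Tnnt2low over Tnnt2high was -0.49, and in the longest quartile it was 0.39. The share of genes called higher was 0.197% in the shortest, 1.58% in the second, 7.82% in the third and 24.2% in the longest quartile. Tead1, Lats1, Lats2 and Amotl1 lie in the longest quartile and Yap1, Wwtr1 and Tead4 in the third, whereas Sav1 and Ctgf lie in the second and Cyr61, with 2019 exon bases, in the shortest. An offset for exon length and GC content in each library reduced the calls over all genes from 2052 to 200 and those among the members from 4 to 1. Cyr61 was the member that passed, with a log2 fold change of 1.27 (95% interval 0.64 to 1.89, adjusted p = 0.0455). The log2 fold change of Tead1 became 0.34 (95% interval 0.10 to 0.58, adjusted p = 0.132) and that of Yap1 0.35 (95% interval 0.06 to 0.64, adjusted p = 0.204). For Amotl1 it became 0.03 (95% interval -0.22 to 0.28, adjusted p = 0.929), and for Lats2 0.24 (adjusted p = 0.646). The ratio of reads with no gene feature to gene reads, given above, separated the same populations, and its part in the values of the long members was not tested.

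**Figure D3:**
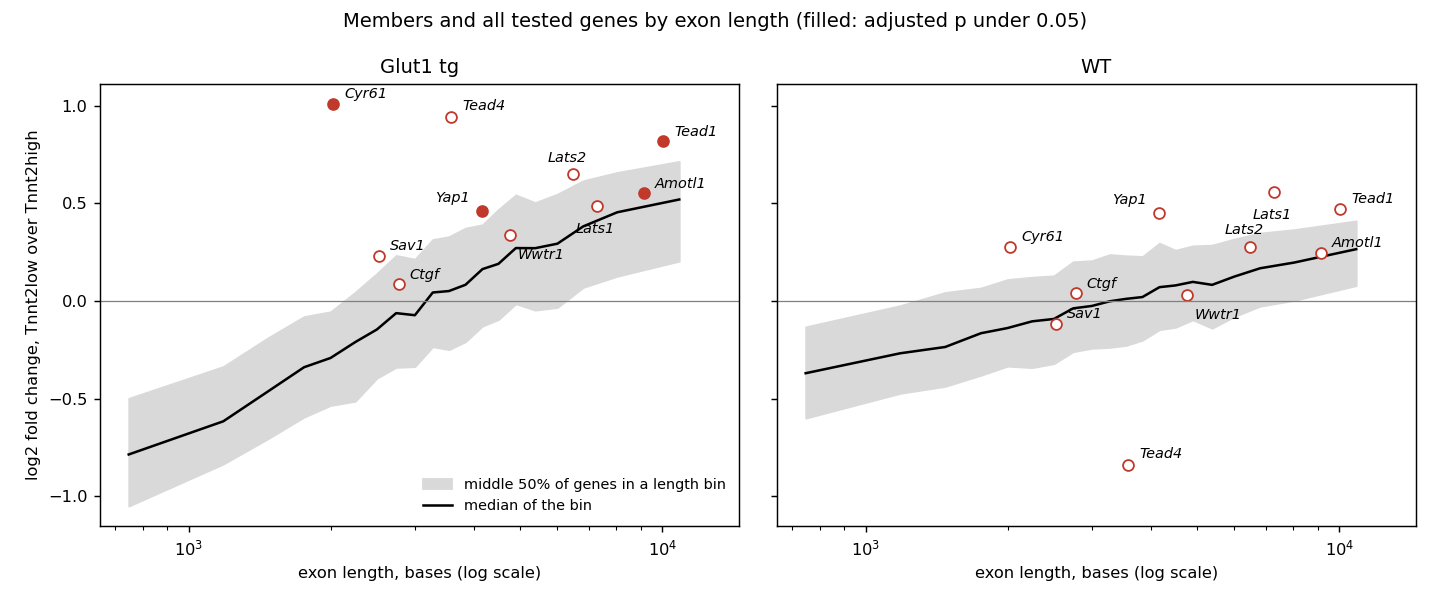
Log2 fold change of Tnnt2low over Tnnt2high (vertical axis) against exon length in bases (log axis) in Glut1 tg (left) and WT (right). The line is the median and the band the middle 50% of all tested genes in 20 bins of equal gene number, and points are the 10 members (filled where the adjusted p is under 0.05), with Cyr61 far above genes of its length at 1.01 and Amotl1, at 0.55, close to the median of genes of its own.

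In WT hearts the same comparison had 2 libraries per population, and no gene of 12252 was called (0 or 0.0% by edgeR, 3 by DESeq2 over all genes, and 381 at an unadjusted p under 0.05 in edgeR). Yap1 was at 96.0 and 86.4 CPM in Tnnt2low against 60.9 and 72.3 CPM in Tnnt2high libraries. Its log2 fold change of 0.45 (95% interval 0.01 to 0.89) was close to the Glut1 tg value of 0.46. Tead1 was at 319.6 and 323.2 CPM against 170.7 and 291.9 CPM, a log2 fold change of 0.47 (95% interval 0.00 to 0.95). The libraries did not overlap for Yap1, Tead1, Lats1 and Amotl1, all higher in Tnnt2low cells, against 15.3% of all tested genes. Cyr61 was at 80.9 and 124.9 CPM against 46.4 and 122.5 CPM, and Ctgf at 93.5 and 360.6 CPM against 60.7 and 379.5 CPM, so both overlapped. The median of the 10 members was 0.26, and with the offset for length and GC content 0.10. WT replicate 2 separated the populations less than replicate 1 did. Tead1 differed by a factor of 1.11 in replicate 2 and 1.87 in replicate 1, and Cyr61 by factors of 1.02 and 1.74. Reads with no gene feature per gene read also differed less between the populations of replicate 2, and their part in these values was not tested.

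Whether the population effect differed between genotypes was tested as an interaction, and no member passed (0 of 12252 genes or 0.0% by edgeR, 5 by DESeq2, 554 at an unadjusted p under 0.05 in edgeR). The largest interaction among members other than Tead4 was that of Cyr61, with a difference of log2 fold changes of 0.73 (95% interval -0.32 to 1.79, adjusted p = 0.961). For Yap1 the difference was 0.01 (95% interval -0.53 to 0.55). These intervals include no difference and also differences larger than most of the effects themselves.

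**Figure D4:**
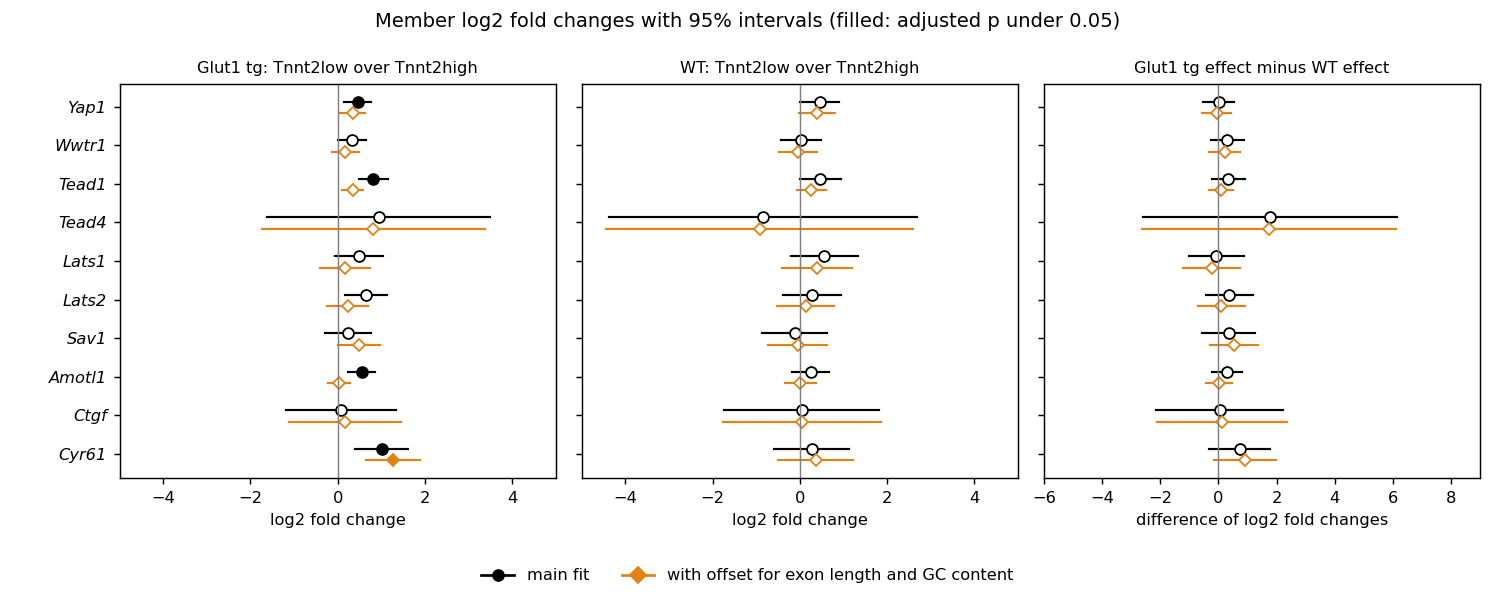
Log2 fold changes (points) with 95% intervals (lines) of the 10 members for Tnnt2low over Tnnt2high in Glut1 tg, the same in WT, and the difference of both, from counts as deposited (black circles) and with the offset for exon length and GC content (orange diamonds), filled where the adjusted p is under 0.05. In Glut1 tg, 4 members pass as deposited and Cyr61 alone passes with the offset, and none passes in WT or for the difference.

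Between genotypes within a population, no member passed the test. In Tnnt2low cells 1 gene of 12252 was called (0.00816%), and it was not a member. Cyr61 was at 145.3 to 202.7 CPM in Glut1 tg and at 80.9 and 124.9 CPM in WT libraries, with no overlap. Its log2 fold change was 0.66 (95% interval -0.10 to 1.42, adjusted p = 1.0). Tead1 also did not overlap, at 327 to 350 CPM against 320 and 323 CPM, though its log2 fold change was only 0.08. That made 2 members with higher and separate libraries in Glut1 tg, against 5.39% of all tested genes. In Tnnt2high cells 0 of 12252 genes (0.0%) were called by edgeR, 5 by DESeq2 and 650 at an unadjusted p under 0.05 in edgeR. Amotl1 was at 57.9 to 81.9 CPM in Glut1 tg and 83.9 and 101.9 CPM in WT Tnnt2high libraries, a log2 fold change of -0.43 (95% interval -0.79 to -0.06, adjusted p = 0.899). It was the only member whose Glut1 tg libraries lay wholly below those of WT, where 6.12% of all tested genes did. The study lists Cyr61 among the genes upregulated in Glut1 tg over WT Tnnt2high cells. Here the log2 fold change of Cyr61 was -0.07 (95% interval -0.82 to 0.68), so that rise was not seen. Of the 10 members, only Lats1, at 0.07, had a log2 fold change above 0 in this comparison (49.6% of all tested genes did), and the median was -0.23, though without WT Tnnt2high replicate 2 those of Yap1, Tead1, Lats2, Ctgf and Cyr61 were also above 0. Xist, transcribed from the inactive X chromosome, was at 199 to 504 CPM in all 4 WT libraries and at 0 to 4.66 CPM in those of Glut1 tg replicates 2 and 4. Genotype is therefore partly confounded with sex, and the part of sex in these values was not tested. These genotype comparisons share their libraries with the population comparisons above and are not independent of them.

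Within pairs the members differed in how steadily they followed the population. Yap1, Wwtr1, Tead1, Lats2, Amotl1 and Cyr61 were higher in the Tnnt2low library in 6 of 6 pairs, over both genotypes. Ctgf and Lats1 were higher in 5 of 6, Tead4 in 3 of 6 and Sav1 in 2 of 6. The 2 WT pairs may come from 1 heart. In WT replicate 2 the populations were nearly equal for Lats2 (ratio 1.002), Wwtr1 (1.02) and Cyr61 (1.02). How many of all tested genes were higher in 6 of 6 pairs was not counted. The ratio of Tnnt2low to Tnnt2high was 1.46 to 2.14 for Tead1, 1.24 to 1.67 for Yap1, 1.05 to 1.93 for Amotl1 and 1.19 to 2.17 for Lats2 in the 4 Glut1 tg hearts. For Cyr61 it was 1.63 to 2.65, and for Ctgf 1.01 to 1.28. The level of Ctgf meanwhile changed by 6.57-fold from the lowest to the highest library, the largest range among the 9 members with reads in every library, against 1.81-fold for Yap1. It was high in Glut1 tg replicate 1 and WT replicate 2 and low in Glut1 tg replicate 3 and WT replicate 1, in both populations each time. Lats1 and Sav1 were split by replicate in Tnnt2high cells of Glut1 tg hearts. Replicates 1 and 2 held 19.0 and 19.99 CPM of Lats1 against 8.18 and 12.6 CPM (33 and 53 reads) in replicates 3 and 4. For Sav1 the values were 33.1 and 27.9 CPM against 13.1 and 16.4 CPM. In Tnnt2low libraries of these hearts Lats1 ran the other way, at 16.8 and 20.8 against 23.5 and 22.6 CPM. Sav1 was at 30.8 and 26.9 against 23.1 and 25.7 CPM there.

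Across the 12 libraries, which share hearts and populations, log2 CPM of Yap1 went with that of Tead1 (Pearson's r = 0.87) and Amotl1 (r = 0.86), and that of Tead1 with Amotl1 (r = 0.87). Cyr61 went most with Lats2 (r = 0.80). Ctgf had its highest value with Cyr61 (r = 0.68) and values near 0 with Yap1 (r = -0.115) and Amotl1 (r = 0.05). These are descriptions over 12 libraries, which come from 6 pairs and also share differences in depth and in reads with no gene feature. Over 9496 tested genes that averaged 5 CPM or more, those most like Yap1 were Synrg (r = 0.99), Ash1l (r = 0.97) and Setd1b (r = 0.96), and those most like Lats2 were Zfp651, Pcdh7 and Mgea5 (each r = 0.96). For Ctgf they were Lmod2 (r = 0.96), Csrnp1 (r = 0.95) and Per1 (r = 0.92), and for Cyr61 Hunk (r = 0.95), Spdl1 (r = 0.93) and Ss18 (r = 0.93).

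Of 32 other Hippo pathway genes, 30 were tested, and 6 rose and none fell in Glut1 tg Tnnt2low over Tnnt2high cells, beside the 8.42% of all genes called higher. Their median log2 fold change was 0.13, and 19 of 30 were above 0. The 4 with the smallest p were Map4k4, a kinase that can activate LATS (367 ± 52.7 against 231 ± 6.13 CPM, SD, n = 4, log2 fold change 0.67, adjusted p = 0.00508), Wwc2, a relative of KIBRA (0.66, adjusted p = 0.0102), the kinase Taok1 (0.57, adjusted p = 0.0202) and Nf2, which encodes merlin and recruits LATS to the membrane (0.52, adjusted p = 0.0233). All 4 act upstream of YAP as its inhibitors. The others that rose, named after their values were seen, were Limd1, which binds LATS and restrains it (0.43, adjusted p = 0.028), and Strn, a subunit of the STRIPAK phosphatase complex that opposes MST kinases (0.68, adjusted p = 0.0295). With the offset for length and GC content 0 of the 30 passed and their median was 0.01. In WT, 0 of the 30 were called and their median was 0.14.

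Of 22 other genes known as YAP-TEAD targets, 18 were tested, and Amotl2 and Ptpn14 among them are also in the Hippo list above. The median log2 fold change of the 18 in the Glut1 tg comparison was 0.47. Beside the 8.42% of all genes called higher and 8.33% lower, 4 rose and none fell. They were Dock5, a guanine nucleotide exchange factor (10.4 ± 3.17 against 3.34 ± 1.09 CPM, SD, n = 4, log2 fold change 1.62, adjusted p = 0.0104), Dlc1, a GTPase-activating protein (0.66, adjusted p = 0.0083), Arhgef17, another exchange factor (0.68, adjusted p = 0.0177), and Gadd45b, a stress-response gene (0.66, adjusted p = 0.0364). With the offset the median was 0.24 and Gadd45b alone passed, at 1.11 (adjusted p = 0.0296). In WT, 0 of 18 were called, with a median of 0.15. Ankrd1, a cardiac target of highest abundance in this list, was at 807 ± 247 CPM in Glut1 tg Tnnt2low and 698 ± 225 CPM in Tnnt2high libraries (SD, n = 4).

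Cyr61 is also an immediate early gene, induced within minutes by growth factors, stretch or cell handling. Of 23 other immediate early genes, 22 were tested and Fosb, Klf4, Dusp1 and Atf3 rose in Glut1 tg Tnnt2low cells, by log2 fold changes of 1.97, 0.99, 0.70 and 0.82, and none fell. Among all tested genes 8.42% were called higher and 8.33% lower in this comparison. The list summed to 1108 to 1816 CPM in Glut1 tg Tnnt2low and 1039 to 1275 CPM in Tnnt2high libraries, and to 1144 and 1286 against 973 and 1179 CPM in WT. Its median log2 fold change was 0.17, and with the offset it was 0.37 and Dusp1 alone passed. Fosl1 had 0 reads in all libraries. The part of this response in the Cyr61 result was not tested. The list for SRF, a factor that shares targets with YAP, held Srf itself, its cofactors Mkl1 and Mkl2, and genes of the actin cytoskeleton. Of its 18 genes only Vcl rose and Tpm1, Fhl2 and Actb fell, with a median log2 fold change of -0.36. With the offset 0 rose and Tpm1 alone fell, and the median was -0.24.

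Of 20 G2 and M genes, 15 rose in Glut1 tg Tnnt2low cells and 6 passed with the offset, and the median of their log2 fold changes was 1.36. For this list and the marker lists below, the shares over all tested genes were 8.42% called higher and 8.33% lower. The proliferation marker Mki67 had a log2 fold change of 1.94 (adjusted p = 0.00337). These genes summed to 872 to 2518 CPM in Glut1 tg Tnnt2low and 522 to 740 CPM in Tnnt2high libraries. Cyr61, Tead1, Yap1 and Amotl1 were also higher in these Tnnt2low libraries. In WT the sums were 1047 and 1628 CPM against 723 and 1591 CPM, with 0 of 20 called and a median of 0.15. Between genotypes 0 of 20 were called in either population. Log2 fold changes of Glut1 tg over WT had a median of 0.31 for Tnnt2low but -0.86 for Tnnt2high cells. In the latter, 9 of 20 were lower at an unadjusted p under 0.05 in edgeR. The part of the G2 and M genes in the members' differences was not tested. The 10 fibroblast and matrix markers summed to 54.6 to 104 CPM in Glut1 tg Tnnt2low and 155 to 917 CPM in Tnnt2high libraries, and 6 of 10 fell, among them the collagen genes Col1a1 and Col1a2. The 10 endothelial markers summed to 8.80 to 80.8 CPM against 32.1 to 271 CPM, with 0 of 10 called and 7 at an unadjusted p under 0.05. In WT replicate 1 both marker sums were higher in the Tnnt2high library, and in replicate 2 they were close to equal for both populations. Of 9 tested smooth muscle and pericyte markers 2 rose (Abcc9 and Cspg4) and 2 fell (Notch3 and Pdgfrb), and of 12 cardiomyocyte markers Ryr2 rose and 5 fell. With the offset 0 rose and 1 fell in each of these lists, Notch3 and Myl2. Leukocyte markers summed to at most 9.28 CPM and Cd3e was at 0 reads in every library. Of the 6 erythroid markers, Hba-a1, Hba-a2, Hbb-bs and Hbb-bt were at 0 reads in every library, and the list summed to 18.6 CPM in WT Tnnt2low replicate 1 and to at most 3.06 CPM in the other libraries. Reads that did not align uniquely, 28.2 to 40.9% of records, were not counted to genes. Whether globin reads were among them was not tested, so the 0 reads do not show that blood RNA was absent. The 6 epicardial markers summed to at most 20.1 CPM. Ctgf and Cyr61 are expressed by fibroblasts and endothelial cells as well as by cardiomyocytes, and the part of these cells in their levels was not tested.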

How the data were processed

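RNA-seq was measured in 12 libraries of sorted cardiomyocytes. The authors deposited raw counts of reads per gene, which they made from single-end reads of 50 bases by trimming at a Phred score of 20, mapping with HISAT2 to mm10 and counting with HTSeq over the union of exons, and they tested them with DESeq2. Tool versions, the counting mode and whether strand was used were not given in the sources used here, so reads of overlapping or antisense genes cannot be told apart. Sample records describe heart tissue where the study describes sorted cells, and the study's description was used. The 5 totals that name no gene (73.6% of records on average) stayed out of library sizes and tests, and replicates differed by more than counting noise.

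The main test was the quasi-likelihood test of edgeR 4.0.16 under R 4.3.3 (TMM scaling, filterByExpr, a prior count of 2 for log2 CPM), with all 12 libraries in 1 fit of 4 groups, Benjamini-Hochberg adjustment over 12252 genes and calls at an adjusted p under 0.05. The common biological coefficient of variation was 0.314. Intervals are 95%. Alternatives were DESeq2 1.42.0, RLE scaling, no filter, a robust fit, only the groups compared, the heart as a block, a loess offset (span 0.3) for exon length and GC content over 12183 genes, both of the last together, and each library left out. Lengths came from GENCODE vM21 on GRCm38, which matched 24037 genes (98.43%). Figures were drawn with matplotlib 3.10.9.

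All 10 members were named, and for the other lists up to 4 genes per direction with the smallest p among those called, or the most abundant where none was. The members and lists were chosen with earlier results of these data known. Both libraries of a Glut1 tg number come from the same heart per the labels, and the numbers were used to pair the libraries. Their deviations from the group means correlated at 0.226, 0.131, 0.118 and 0.107. Libraries of different numbers were not correlated, so these values do not test the pairing. For the WT numbers the correlation was 0.271, the same for both because each WT group has 2 libraries.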

Additional observations from a re-analysis of the deposited data

Results flagged for a closer look

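Cyr61 in the Glut1 tg Tnnt2low libraries had 1 value far from the other 3 in the group, that of replicate 1 at 203 CPM, where the others lay between 145.3 and 154.9 CPM. Its gap to the nearest library relative to the range of the group exceeded Dixon's 95% critical value for 4 samples, which chance exceeds in about 1 in 20 groups. The same heart also had the highest Cyr61 level among Glut1 tg Tnnt2high libraries, at 124.3 CPM, and the highest Ctgf level of all libraries in the Tnnt2low population, at 398.6 CPM. Without this library the log2 fold change of Cyr61 between the populations was 0.89 (adjusted p = 0.0825 in edgeR's quasi-likelihood test).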

How the results depend on the processing

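In the comparison of Glut1 tg populations, 2052 genes and 4 members were called. With the offset for length and GC content the counts were 200 and 1, and with the replicate block and the offset together 458 and 1. With the replicate block alone they were 2337 and 5, and with 1 library left out 1237 to 2127 and 1 to 5. The replicate block changed the call of 1 member, Lats2, which passed with it. Among genes of the whole table, WT populations had 0 calls as reported, 3 with DESeq2, 6 with no filter, 5 with only these groups, 2 with the replicate block, 2 with the replicate block and the offset, and 0 to 1 with 1 library left out. Genotypes in Tnnt2low cells had 1 call as reported, 6 with DESeq2, 10 with no filter, 0 with the offset, 0 with the robust fit and 0 to 1 with 1 library left out. Genotypes in Tnnt2high cells had 0, and 5, 13 and 3 with DESeq2, no filter and only these groups, and 0 to 1 with 1 library left out. The interaction had 0, and 5 with DESeq2, 9 with no filter and 0 to 1 with 1 library left out. No member was called outside the Glut1 tg population comparison under any alternative run.

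Members that changed sign did so only where they were not called. Leaving out 1 library gave log2 fold changes between Glut1 tg populations of -0.26 to 1.54 for Tead4 and -0.39 to 0.63 for Ctgf. Between WT populations it gave -0.15 to 0.22 for Wwtr1, -3.49 to 1.32 for Tead4, -0.14 to 0.89 for Lats2, -1.24 to 1.91 for Ctgf and -0.26 to 1.16 for Cyr61. In Tnnt2low cells between genotypes it gave -0.16 to 0.19 for Wwtr1, -0.36 to 3.48 for Tead4, -0.14 to 0.15 for Lats1, -0.10 to 0.27 for Lats2 and -0.74 to 1.22 for Ctgf. In Tnnt2high cells between genotypes it gave -0.23 to 0.034 for Yap1, -0.60 to 0.19 for Tead1, -1.81 to 1.22 for Tead4, -0.10 to 0.27 for Lats1, -0.69 to 0.35 for Lats2, -0.90 to 1.76 for Ctgf and -0.60 to 0.81 for Cyr61. For the interaction it gave -0.13 to 0.13 for Yap1, -0.10 to 0.69 for Tead1, -0.38 to 4.43 for Tead4, -0.27 to 0.093 for Lats1, -0.24 to 0.80 for Lats2, -1.83 to 1.33 for Ctgf and -0.15 to 1.27 for Cyr61. The offset reversed Wwtr1 between WT populations to -0.0418 (-0.0478 with the replicate block as well), Wwtr1 between genotypes in Tnnt2low cells to -0.0197 and the interaction of Yap1 to -0.0549 (-0.0451 with the replicate block as well). Lats1 between genotypes in Tnnt2low cells became 0.0041 with DESeq2 and 0.0046 with RLE scaling. The interaction of Ctgf became -0.12 with the replicate block and -0.076 with the offset as well. With CPM by total assigned reads, mean levels of Tead1 in Glut1 tg and WT Tnnt2low cells became 357 and 327 CPM, and that of Amotl1 in WT Tnnt2low cells became 112.1 CPM.

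Depth and design set the limits. The cause of the loss of calls with the offset was not tested. Tead4, with at most 40 reads in a library, allows no statement on direction. WT groups of 2 libraries leave wide intervals, so the absence of calls there and in the interaction does not show that genotypes were alike.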
